A study of Mus musculus with 6 samples.

Results

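The genes described are the organic anion transporting polypeptides (Slco), the organic cation, anion and carnitine carriers (Slc22a) and the ATP-binding cassette (ABC) families Abca to Abcg of the mouse, in liver. They were chosen by symbol, with the bile salt pump gene Abcb11 set aside, and a gene was a member when a probe carried the accession of one of its RefSeq transcripts. This gave 66 genes of 13971 named on the array: 11 Slco, 17 Slc22a, 10 Abca, 7 Abcb, 9 Abcc, 3 Abcd, 3 Abce or Abcf and 6 Abcg. The other 24 symbols of these families had no probe with a matching accession and are not analysed here.

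RNA came from livers of C57Bl/6 mice aged 14 months and was read on 1-colour oligonucleotide arrays. Wild-type mice gave 3 arrays, replicates 1, 2 and 4. The other 3 arrays, replicates 1, 3 and 4, came from mice that carry human c-Src, a non-receptor tyrosine kinase, under the promoter of mouse metallothionein. That promoter responds to zinc, the design text says that zinc was typically not needed, and the labels do not say whether these mice received it or what sex they were. In the labels each mouse has its own number within its group, and numbers 1 and 4 occur in both groups. A further 2 arrays were left out by the study for low signal, and whether a liver held a tumour is not in the labels. The comparison asks which liver genes may lie downstream of Src. Levels are background-corrected spot signals on a log2 scale after quantile normalization, so a difference of 1 is 2-fold. A level can be compared between arrays for 1 gene, not between genes.

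Transporters of these families carry drugs, hormones, bile pigments and lipids through the 2 faces of the hepatocyte. As background, Slco and Slc22a carriers take up organic anions and cations from blood on the basolateral side. ABC proteins use ATP to move substrates, at the canalicular side into bile and at the basolateral side back into blood, while others act in mitochondria, peroxisomes and lysosomes. Several hepatic carriers of the mouse differ between the sexes under control of growth hormone, among them Slco1a1, which is higher in males, and Slco1a4, which is higher in females.

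The Src probe read 6.62 to 7.21 in wild-type and 7.71 to 9.67 in transgenic livers, without overlap. Whether this probe reads the human transcript is unknown. Mt1, an endogenous gene with a metallothionein promoter, read 9.72 to 11.50 and 13.71 to 14.38. Of 7 tested hepatocyte markers, among them Alb and Ttr, all were above background on all 6 arrays. Transgenic replicate 4 stood apart. Of 4 Y-linked genes 1 was above background there, against 4 on each other array. The mean log2 level of 14 female-biased liver genes minus that of 15 male-biased ones was 1.14 on that array. It was -3.45 on transgenic replicate 1, -4.19 on replicate 3 and -5.71 to -5.61 in wild-type livers. Results that rest on this array are given with and without it. Some spots lay in bright or dim patches of an array, which held between 0.726% and 7.55% of the probes of an array and touched 12 of the 66 members, and 18.4% of all features, on at least 1 array.

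Most transporter genes were detected. A signal counted as above background when it exceeded the bacterial control spots, and 47 of the 66 members were above it on all 6 arrays, 8 on some and 11 on none. All 10 Abca members and all 3 of Abce and Abcf were above it on every array, as were 8 of 11 Slco and 9 of 17 Slc22a genes. Slc22a3, Slc22a4, Slc22a21, Slc22a22, Slc22a29, Slco1a6, Abcb1a, Abcb1b, Abcb9, Abcc1 and Abcc12 were not well above background anywhere. For these a difference has no measured size.

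No transporter passed the test between transgenic and wild-type livers. By limma's moderated test 0 of 66 members had an adjusted p under 0.05, and 0% of all 34175 features had one. At an unadjusted p under 0.05, 2 members were higher and 2 lower, against 4.37% and 2.72% of all features, so both counts lie near the background. In either direction that is 4 members (6.06%), against 7.09% of all features. The higher ones were Slc22a29 and Abcc5 and the lower ones Slco1a1 and Slc22a22, and of these only Abcc5 and Slco1a1 were above background. Median scaling in place of quantile normalization gave 943 features higher and 1311 lower where the main setting gave 1493 and 931, and 75th percentile scaling gave 1094 and 1290. Both scalings gave 2 members higher, again Slc22a29 and Abcc5, and 2 lower, Slco1a1 and, in place of Slc22a22, Abcb1b. Without transgenic replicate 4, 2 members were higher and 3 lower, against 953 and 769 of all 34175 features. The median log2 difference was 0.00049 over the members and 0.016 over all features, and 33 members (50%) had positive values, against 51.7% of all features. The groups did not overlap for 8 members that were higher (12.1%, against 10.1% of all features) and 6 that were lower (9.09%, against 5.9%), in all 14 members (21.2%) against 16% of all features.

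The precision allows bounds for many of them. For 27 of the 47 members above background on all arrays the 95% interval of the difference lay inside a 2-fold change either way, and for 20 it did not. The median SE of these 47 differences was 0.26 on the log2 scale. Counts of 0 calls from 3 arrays against 3 therefore do not show that levels were equal.

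**Figure D1:**
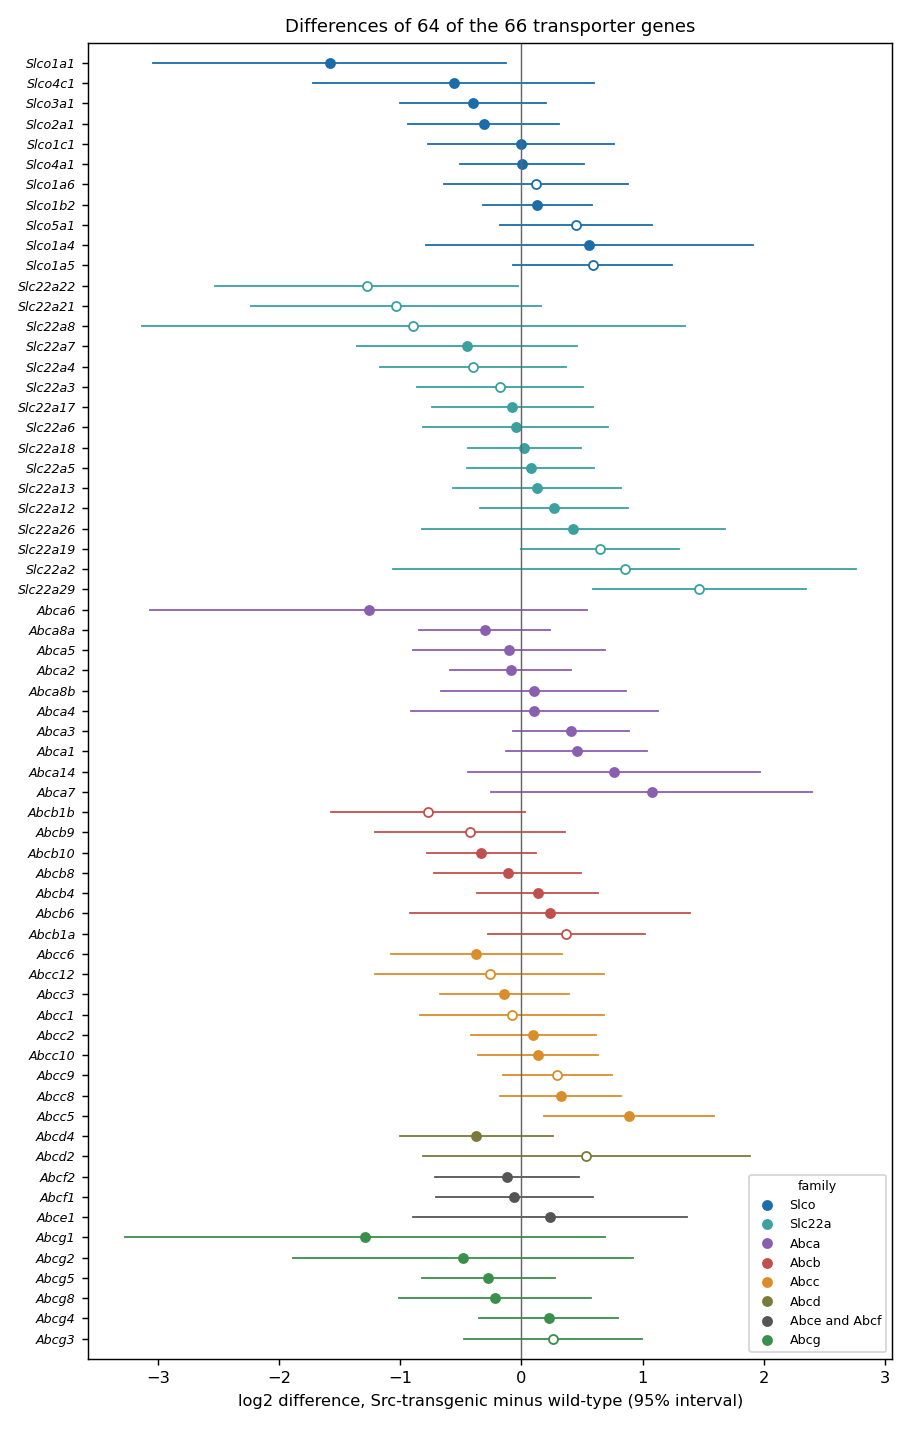
Log2 difference of 64 of the 66 transporter genes, transgenic minus wild-type, on the horizontal axis, with limma's 95% interval, grouped by family. Filled points are genes above background on all 6 arrays, open points are other genes; most intervals cross 0, and those of Slco1a1 and Abcc5 are the 2 among filled points that do not.

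Slco1a1, Slco1a4 and Slco1b2 are neighbours in a run of 6 Slco1 members, and on transgenic replicate 4 one of them was low, one high and one level. For that reason the 250 bases before the start of each are shown, 5′ to 3′, from RefSeq on build GRCm38.p6. They lie at chr6:141946963-141947212 for Slco1a1 and chr6:141856221-141856470 for Slco1a4, both on the minus strand, and at chr6:141629268-141629517 for Slco1b2 on the plus strand. Capitals mark matches, on either strand, to 6 motifs: TTCNNNGAA of STAT5, GTTAAT (an HNF1 core site), TGTTTAC of FOXA, AGGTCA (a nuclear receptor core site), CAAAGTCCA of HNF4 and AGATAA of GATA.
Slco1a1: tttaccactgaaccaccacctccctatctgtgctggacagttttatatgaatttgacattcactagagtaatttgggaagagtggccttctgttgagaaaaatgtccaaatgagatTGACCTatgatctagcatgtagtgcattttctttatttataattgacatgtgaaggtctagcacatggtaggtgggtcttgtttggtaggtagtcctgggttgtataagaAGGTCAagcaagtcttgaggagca
Slco1a4: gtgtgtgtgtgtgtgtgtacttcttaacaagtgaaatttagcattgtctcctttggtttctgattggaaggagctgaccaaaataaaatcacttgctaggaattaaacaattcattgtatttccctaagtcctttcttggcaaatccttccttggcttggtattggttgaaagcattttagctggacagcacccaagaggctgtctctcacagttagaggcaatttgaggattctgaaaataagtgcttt
Slco1b2: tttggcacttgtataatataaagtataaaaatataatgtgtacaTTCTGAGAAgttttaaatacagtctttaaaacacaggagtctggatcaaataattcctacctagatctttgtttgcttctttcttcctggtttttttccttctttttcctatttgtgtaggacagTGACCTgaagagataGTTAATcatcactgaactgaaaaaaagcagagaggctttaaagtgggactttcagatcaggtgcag

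The Slco1a1 stretch held 2 nuclear receptor core sites, 134 and 24 bases before the start. The Slco1b2 stretch held 1 such core site, 1 STAT5 motif and 1 HNF1 core site, and the Slco1a4 stretch held none of the 6 motifs. Of 32817 RefSeq promoter stretches of this length, 14% held the nuclear receptor core site, 7.01% the STAT5 motif, 6.44% the HNF1 core site, 3.16% the FOXA motif, 0.384% the HNF4 motif and 9.99% the GATA motif. A match describes letters in this window and no binding was measured.

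Among the Slco uptake carriers, Slco1a1 gave the widest gap between group means. It encodes a basolateral carrier of bile acids, steroid conjugates and drugs. Wild-type replicates 1, 2 and 4 read 11.84, 11.99 and 11.56. Transgenic replicates 1, 3 and 4 read 10.30, 11.40 and 8.95. All 3 transgenic arrays lay below all 3 wild-type arrays, by a narrow margin for replicate 3 and by the widest for replicate 4. The wild-type mean was 11.80 ± 0.22 (SD, n = 3). The transgenic mean was 10.22 ± 1.22 (SD, n = 3). That is -1.58 ± 0.60 (SE) in log2 terms, 2.99-fold lower, with a limma adjusted p of 0.691. The exact permutation p, two-sided, was 0.1, which 3 arrays against 3 cannot go below. Without transgenic replicate 4 the difference was -0.95, and without replicate 3 it was -2.17. The Slco1a1 spot lay in a patch on wild-type replicate 2, and local correction of patches gave -1.30.

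Slco1a4, a carrier of organic anions and cardiac glycosides, differed on 1 array. It read 10.84, 10.65 and 10.79 in wild-type livers. In transgenic livers it read 10.69 (replicate 1), 10.63 (replicate 3) and 12.64 (replicate 4). The first 5 values lie close together, and replicate 4 was 1.79 above the nearest of them. The log2 difference of the groups was 0.56 ± 0.56 (SE) with replicate 4 and -0.098 without it (limma adjusted p = 0.790 with all arrays).

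Slco1b2, which takes up bilirubin conjugates, bile acids and many drugs into hepatocytes, was level. It read 12.84, 13.01 and 12.73 in wild-type and 13.08, 12.94 and 12.95 in transgenic livers. The groups overlapped, and the log2 difference was 0.13 with a 95% interval of -0.32 to 0.58. Under median and 75th percentile scaling and under local correction the sign of this value turned (-0.22, -0.20 and -0.072).

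The remaining Slco genes gave small or dim values. Slco2a1, the prostaglandin transporter gene, differed by -0.31 ± 0.26 (SE) and Slco3a1, which also encodes a prostaglandin and anion carrier, by -0.40 ± 0.25. Slco4a1 and Slco1c1, both of which encode thyroid hormone carriers, differed by 0.0037 ± 0.21 and -0.0027 ± 0.32. Slco1c1 read 10.06 on transgenic replicate 4 against 10.54 to 11.12 elsewhere, and without that array its difference was 0.32. Slco4c1 spread between 5.95 and 7.87 within wild-type alone, wider than its difference of -0.56 ± 0.48, which was -0.097 without wild-type replicate 4 and -1.06 without wild-type replicate 2. Slco1a5 was above background on transgenic replicates 1 and 3 and on no wild-type array, with levels of 4.41 to 5.02 and 4.95 to 5.59 that overlapped. Its spot lay in a patch on transgenic replicate 3, where it read 5.59. Slco1 paralogs are close in sequence, the probe sequences were not used here, and how far a probe reads a paralog was not tested.

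Of the Slc22a carriers, Slc22a5 and Slc22a18 were close between the groups. The carnitine carrier gene Slc22a5 differed by 0.076 ± 0.22 (SE). The imprinted gene Slc22a18 differed by 0.023 ± 0.19, and by -0.22 and -0.21 under median and 75th percentile scaling. The intervals of both lay inside a 2-fold change.

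Slc22a7, the gene of the organic anion carrier OAT2, was low on 1 array. It read 10.25, 10.72 and 10.31 in wild-type livers, 10.26 and 10.46 in transgenic replicates 1 and 3, and 9.20 in transgenic replicate 4. The difference of the groups was -0.45 ± 0.37 (SE), and -0.066 without replicate 4. Its other probe gave the same order for that array, with 8.995 there against 9.67 to 10.24 on the other 5.

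Slc22a26, an organic anion carrier gene, was high on that same array with both of its probes. The brighter probe read 7.52 to 8.25 in wild-type livers, 7.73 and 7.66 in transgenic replicates 1 and 3 and 9.40 in replicate 4. The other probe read 6.67 to 7.29, then 7.91 and 7.10, and 10.88 in replicate 4. By the brighter probe the groups differed by 0.43 ± 0.52 (SE), and by -0.14 without replicate 4. The mean of both probes gave 1.07. The brighter spot lay in a patch on transgenic replicate 3.

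Slc22a genes known from kidney were mostly dim or level. The urate carrier gene Slc22a12 differed by 0.27 ± 0.25 (SE), the organic anion carrier gene Slc22a6 by -0.047 ± 0.32, and Slc22a17, which encodes a lipocalin receptor, by -0.075 ± 0.27. Slc22a19 was above background on 1 wild-type and all 3 transgenic arrays, at 5.03 to 5.78 and 5.82 to 6.29, with a difference of 0.65 ± 0.27 (limma adjusted p = 0.691). Slc22a29 read 2.68 to 3.84 and 4.36 to 5.07, without overlap and all below background, so no fold is given. Slc22a22 was below background too, on both of its probes. Of 8 tested kidney tubule markers 3 were above background on all 6 arrays. Of the 8, 7 had positive and 1 a negative difference, against 51.7% positive over all features. At an unadjusted p under 0.05, 1, Umod, was higher and 1, Pax8, lower, against 4.37% and 2.72% of all features. Umod was above background on 1 wild-type and 3 transgenic arrays, and Pax8 was below it throughout. The summed level of these markers was 1104 to 1437 in wild-type and 1153 to 2168 in transgenic livers. Slc12a3 was its largest part, with log2 levels of 9.49 to 9.76 and 9.43 to 10.57. Relative to their wild-type means, the 8 markers averaged -0.29, 0.0014 and 0.28 on wild-type replicates 1, 2 and 4. On transgenic replicates 1, 3 and 4 this average was 0.81, 0.055 and 0.51. Slc34a1 read 6.64, 6.47 and 7.99 in wild-type and 6.82, 7.08 and 7.76 in transgenic livers. The part of these markers in the Slc22a values was not tested.

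**Figure D2:**
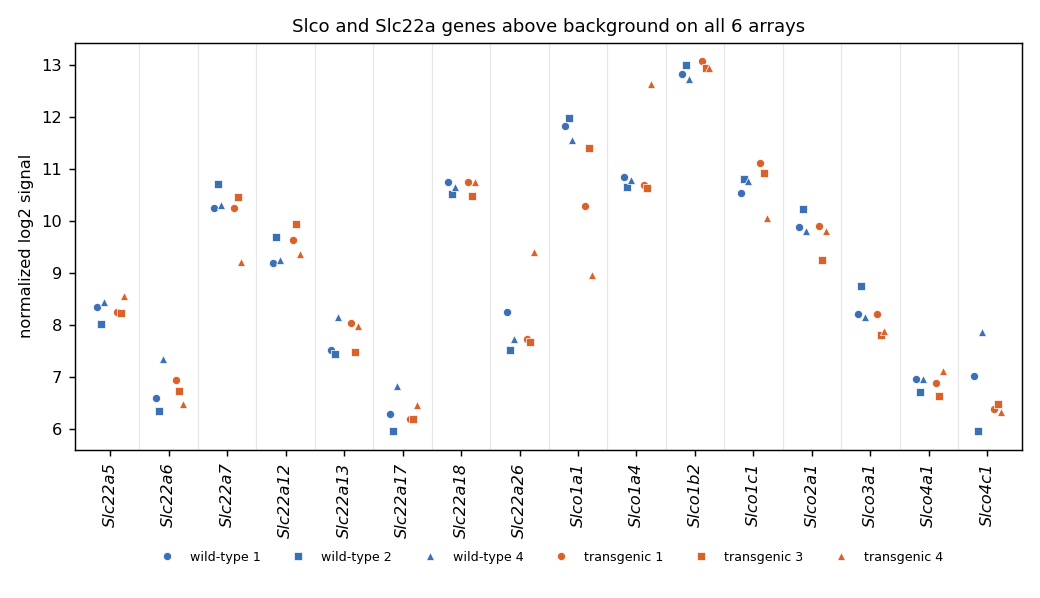
Normalized log2 signal (vertical axis) of Slco and Slc22a genes above background on all 6 arrays, 1 point per array, wild-type in blue and transgenic in orange. Transgenic replicate 4 (orange triangle) lies apart from the other 5 arrays for Slco1a1 (8.95), Slco1a4 (12.64), Slc22a7 (9.20) and Slc22a26 (9.40), while the 6 points of Slco1b2 stay together.

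Among the ABC genes of the canalicular membrane, which export bile constituents, the groups overlapped for Abcb4 and Abcc2. Abcb4, which encodes the phosphatidylcholine floppase, read 11.12, 11.34 and 11.13 in wild-type and 11.39, 11.52 and 11.08 in transgenic livers. The groups overlapped, and the difference was 0.13 with a 95% interval of -0.37 to 0.63 (-0.16 and -0.14 under median and 75th percentile scaling). Abcc2, the exporter of bilirubin and drug conjugates, read 9.47, 9.45 and 9.03 in wild-type and 9.56, 9.33 and 9.36 in transgenic livers, a difference of 0.099 with an interval of -0.42 to 0.61. Its sign turned under the same scalings (-0.022 and -0.0035).

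Abcg2, which exports sulfated conjugates, urate and drugs, was low on 1 array. It read 10.35, 9.80 and 9.73 in wild-type livers, 10.06 and 10.21 in transgenic replicates 1 and 3, and 8.15 in transgenic replicate 4. That array lay 1.57 below the nearest other one. The groups differed by -0.48 ± 0.58 (SE), and by 0.18 without replicate 4.

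Abcg5 and Abcg8 together encode the sterol exporter, and their starts face away from each other with 109 bases between them. That stretch is shown because both genes could be read from it. It lies at chr17:84683012-84683120 on GRCm38.p6, printed on the plus strand from the Abcg5 side to the Abcg8 side, and capitals mark its 2 matches to the GATA motif, both on the opposite strand.
Abcg5 to Abcg8: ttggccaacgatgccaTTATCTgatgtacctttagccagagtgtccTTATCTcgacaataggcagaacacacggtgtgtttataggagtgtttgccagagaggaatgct

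Abcg5 read 9.82, 9.87 and 9.86 in wild-type and 9.74, 9.20 and 9.79 in transgenic livers, so every transgenic array lay below, replicates 1 and 4 only just. Abcg8 read 10.01, 9.91 and 9.98 in wild-type and 9.32, 9.50 and 10.43 in transgenic livers, with replicates 1 and 3 below and replicate 4 above all wild-type arrays. The differences were -0.27 ± 0.23 and -0.22 ± 0.33 (SE). Abcg5 lay in a patch on wild-type replicate 2, and local correction turned its value to 0.35. Without replicate 4 Abcg8 had -0.56, and without replicate 1 it had -0.0015.

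Abcb1a and Abcb1b, which encode the drug exporter P-glycoprotein and neighbour Abcb4, were not well above background on any array. Abcb1b read 4.68 to 5.54 in wild-type and 3.83 to 4.61 in transgenic livers, without overlap but below the level that can be measured.

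The basolateral and other Abcc genes held the 1 detected member that was higher at an unadjusted p under 0.05. Abcc5, which exports cyclic nucleotides and folates, read 6.86, 6.54 and 6.49 in wild-type and 7.16, 8.05 and 7.34 in transgenic livers. The groups did not overlap, and replicate 3 was the highest. Mean levels were 6.63 ± 0.20 (SD, n = 3) and 7.52 ± 0.47 (SD, n = 3), so Abcc5 differed by 0.89 ± 0.29 (SE), 1.85-fold, with a limma adjusted p of 0.691. Leaving out single arrays gave 0.62 to 1.06, and the value without replicate 4 was 0.97. The spot lay in no patch.

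Abcc3, the basolateral exporter of glucuronides, differed by -0.14 ± 0.22 (SE) with an interval of -0.68 to 0.40. Abcc6, a liver gene whose loss causes ectopic calcification, differed by -0.37 ± 0.29, with -0.17 without wild-type replicate 1, -0.65 without wild-type replicate 4 and -0.15 after local correction. Abcc8 and Abcc9, which encode sulfonylurea receptor subunits of potassium channels, had 0.32 ± 0.21 and 0.30 ± 0.18, both with transgenic arrays above wild-type ones, at 9.16 to 9.48 against 8.77 to 9.15 for Abcc8. Abcc9 was above background on 1 wild-type and 3 transgenic arrays. Abcc10 differed by 0.13 ± 0.20.

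Abca and Abcg1 proteins move cholesterol and phospholipids. Abca1, which loads cholesterol onto apolipoprotein A-I, read 8.44, 7.95 and 7.92 in wild-type and 8.51, 8.37 and 8.80 in transgenic livers. The groups overlapped by the margin of 1 array, and the difference was 0.46 ± 0.24 (SE). Abca3, a lipid transporter best known from lung surfactant, read 9.26, 9.61 and 9.63 against 9.96, 9.82 and 9.94, with all transgenic arrays above and a difference of 0.41 ± 0.20. Leaving out single arrays gave 0.29 to 0.47 for Abca3 and 0.34 to 0.63 for Abca1. Neither passed (limma adjusted p = 0.691 for each).

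Abca6, Abca7 and Abcg1 each read far higher on 1 array than on the others, and each spot lay in a patch there. Abcg1, the partner of Abca1 in cholesterol export, read 9.54 on wild-type replicate 2 and 6.04 to 6.90 on the other 5 arrays. Its difference of -1.29 ± 0.82 (SE) became -0.32 without that array and -1.92 without wild-type replicate 4. Abca6 read 11.05 on wild-type replicate 4 and 7.76 to 8.58 elsewhere, and its difference of -1.26 became -0.38 without it. Abca7 read 8.84 on transgenic replicate 3 and 6.20 to 7.15 elsewhere, and its difference of 1.07 became 0.47 without it. Local correction of patches gave -1.11 for Abcg1, -0.75 for Abca6 and 0.55 for Abca7.

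The other Abca genes gave mixed values. Abca14, named after its values were seen, read 7.06 to 7.29 in wild-type livers and 7.38, 9.08 and 7.32 in transgenic replicates 1, 3 and 4, without overlap. Its difference of 0.76 ± 0.50 (SE) became 0.19 without replicate 3, where its spot lay in a patch, and 1.07 without replicate 4. Abca5, Abca6, Abca8a and Abca8b lie side by side, and Abca5, Abca8a and Abca8b differed by -0.10 ± 0.33, -0.30 ± 0.22 and 0.0996 ± 0.31 (SE). Abca8a was the one of these 3 without overlap, at 8.29 to 8.72 in wild-type and 7.91 to 8.26 in transgenic livers. Abca2, known for lipid handling in myelin-forming cells, differed by -0.087 ± 0.21.

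**Figure D3:**
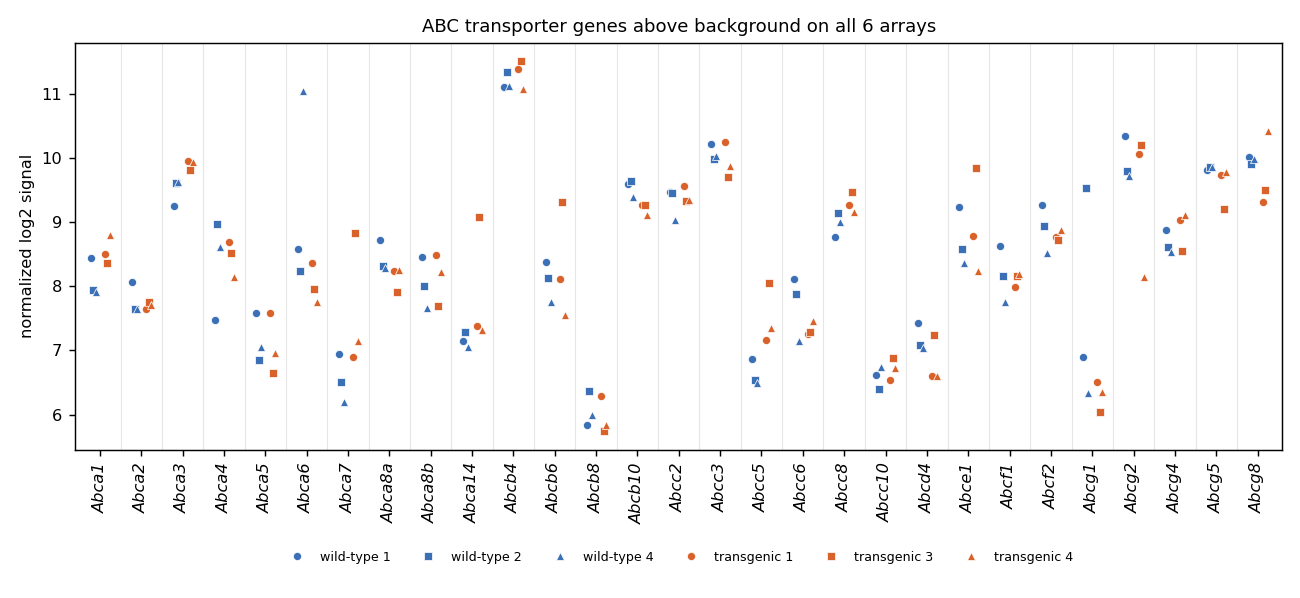
Normalized log2 signal (vertical axis) of ABC genes above background on all 6 arrays, 1 point per array, wild-type in blue and transgenic in orange. Abcc5, Abca3, Abcc8 and Abca14 have all orange points above all blue ones, and Abcb10, Abcg5 and Abca8a have them all below. Single points stand apart for Abca6 (11.05), Abca7 (8.84), Abca14 (9.08), Abcg1 (9.54) and Abcg2 (8.15).

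Among ABC genes for proteins inside the cell, Abcb10 separated the groups without passing the test. Abcb10, a mitochondrial transporter needed for haem synthesis, read 9.60, 9.65 and 9.39 in wild-type and 9.27, 9.27 and 9.11 in transgenic livers, a difference of -0.33 ± 0.19 (SE). All 3 transgenic arrays lay below, and the limma adjusted p was 0.704. Abcd4, which moves cobalamin out of lysosomes, differed by -0.37 ± 0.26 with overlap. The mitochondrial gene Abcb8 differed by -0.11 ± 0.25. Abcb6, a porphyrin transporter gene, read 9.32 on transgenic replicate 3, in a patch, and its difference of 0.24 became -0.26 without that array.

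Abce1, Abcf1 and Abcf2 have no membrane part and act in ribosome recycling and translation. Abcf1 and Abcf2 differed by -0.061 ± 0.27 and -0.12 ± 0.24 (SE), with groups that overlapped. Abce1 lay in a patch on wild-type replicate 1 and on transgenic replicate 3, where it read 9.86, and its difference of 0.23 became -0.21 without the latter.

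Across the arrays, transgenic replicate 4 held the most members that stood alone. A member was counted where 1 array lay more than 1 log2 unit from the nearest of the other 5, a limit set after the values were seen. This held for 7 of 66 members on transgenic replicate 4 (10.6%, against 3.65% of all features) and 3 on transgenic replicate 3 (4.55%, against 3.36%). It held for 2 on wild-type replicate 4 (3.03%, against 4.01%) and 1 each on wild-type replicates 1 and 2 (1.52%, against 2.14% and 2.95%). On transgenic replicate 1 it held for 0 members, against 1.03% of all features. Slco1a4, Slc22a26, Slc22a2 and Abcd2 were alone high on replicate 4 and Slco1a1, Slc22a7 and Abcg2 alone low, and none of these 7 spots lay in a patch on that array. Slc22a2 and Abcd2, which fall outside the rule for named genes, read 7.29 and 7.34 there and 4.13 to 4.90 and 5.21 to 5.71 elsewhere. On transgenic replicate 3, by contrast, both members alone high, Abca7 and Abca14, lay in a patch. The member alone low there, Slc22a21, did not, and it was below background on every array.

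Sex-biased liver genes stood apart on the same array. All 14 tested female-biased genes had positive differences between the groups, with a median of 2.21, and all 15 male-biased genes negative ones, with a median of -0.95. None of these genes is a member. The part of sex, or of any factor that separates this mouse from the others, in the transporter values was not tested, and with 1 array it cannot be told apart from that mouse. On transgenic replicates 1 and 3 the female-biased list lay 1.43 and 0.99 above the wild-type mean and the male-biased list 0.76 and 0.47 below it. There Slco1a1 was below the wild-type range too, while Slc22a7, Abcg2 and the brighter Slc22a26 probe were within the wild-type range, and Slco1a4 was within it on replicate 1 and just under it on replicate 3. The other Slc22a26 probe read above the wild-type range on replicate 1.

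**Figure D4:**
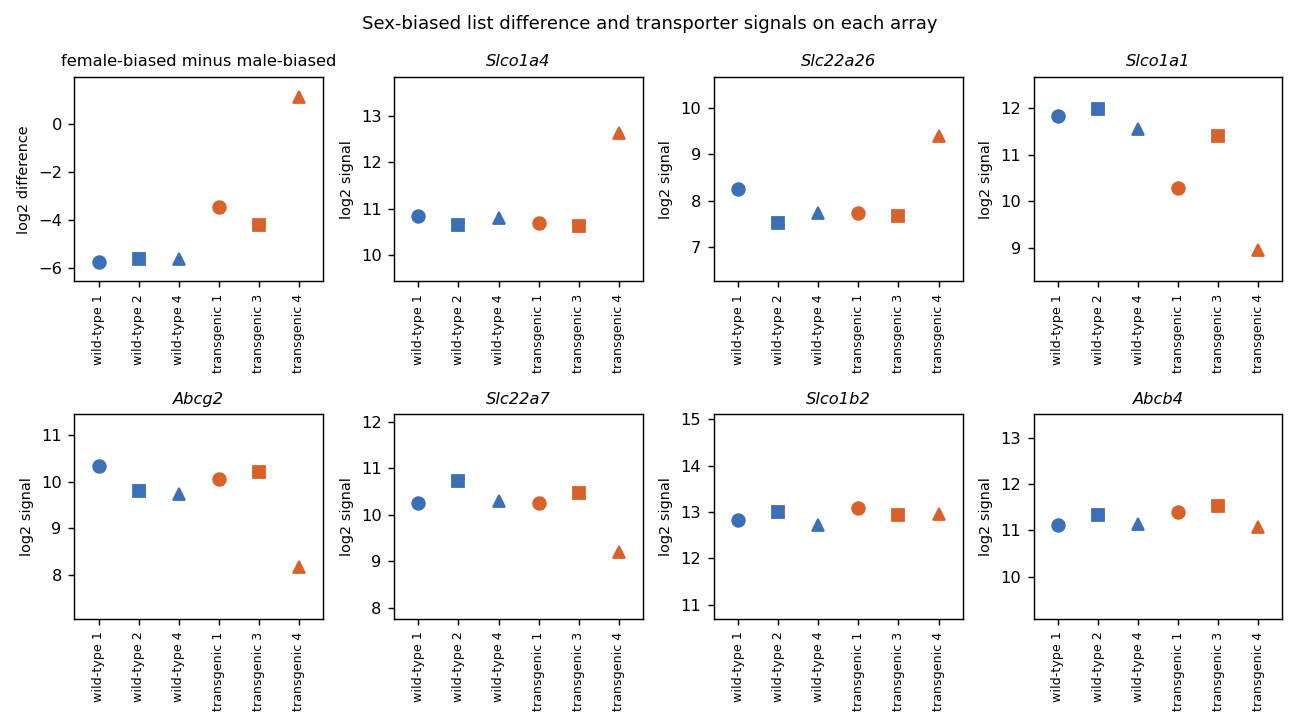
The first panel shows the mean log2 level of 14 female-biased minus that of 15 male-biased liver genes on each array, and the other panels the normalized log2 signal of 7 transporter genes on axes of equal height. Slco1a4 and Slc22a26 are high and Slco1a1, Abcg2 and Slc22a7 low on transgenic replicate 4, where the list difference is 1.14, and Slco1b2 and Abcb4 are level.

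**Figure D5:**
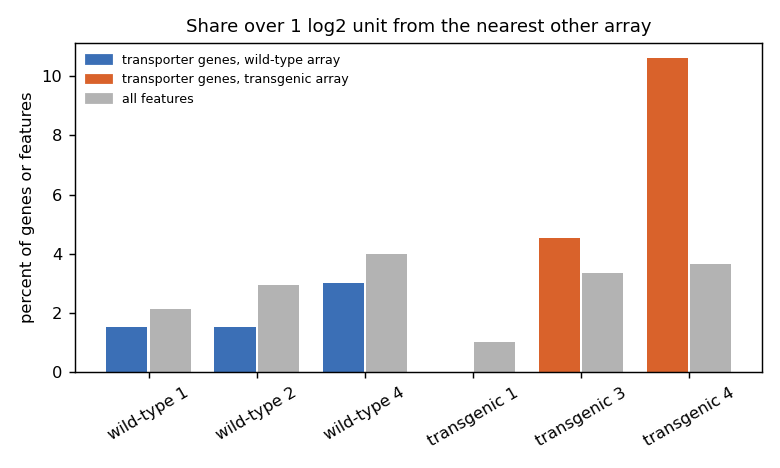
Percent of the 66 transporter genes (coloured bars) and of all 34175 features (grey bars) for which the named array lies over 1 log2 unit from the nearest other array. Transgenic replicate 4 has 10.6% of the transporters and 3.65% of the features, and transgenic replicate 1 has 0% of the transporters.

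Genes that act beside these transporters were read from lists. Of 12 other hepatic carriers 0 passed limma's test, 0 had an unadjusted p under 0.05 and the median difference was 0.055. The sodium-dependent bile acid carrier gene Slc10a1 read 12.23 to 12.59 in wild-type and 11.17 to 12.11 in transgenic livers, a difference of -0.63 ± 0.31 (SE), and Abcb11 12.93 to 13.04 and 12.68 to 12.81, a difference of -0.25 ± 0.17. Of 18 nuclear receptor and transcription factor genes that regulate transporters 0 passed, and the median was -0.095. At an unadjusted p under 0.05, 0 were higher and 1 lower, against 4.37% and 2.72% of all features. The lower one was Nr0b2, which encodes the repressor SHP, at 9.05 to 10.43 and 8.29 to 8.54. Those next in p were Cebpa, a hepatocyte transcription factor gene, at -0.51 ± 0.22 (SE), Hnf4a, which encodes a nuclear receptor that sets hepatocyte identity, at 0.45 ± 0.21 and in a patch on transgenic replicate 4, and Cux2, which is also among the female-biased genes, at 0.61 ± 0.32. Of 11 genes for scaffolds, lipid acceptors and membrane partners 0 passed and 0 had an unadjusted p under 0.05, with a median of 0.014. The lipoprotein gene Apoe, at 0.21 ± 0.18 (SE), had the smallest p of them.

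Markers of other cells that express transporters were read the same way. In whole liver, fewer cells of a type and less RNA per cell cannot be told apart. The summed level of 8 cholangiocyte markers was 1087 to 1385 in wild-type and 1071 to 1590 in transgenic livers, of 7 endothelial markers 4013 to 4674 and 3543 to 4111, and of 5 Kupffer cell markers 3460 to 3917 and 3270 to 6437, the highest on transgenic replicate 4. Of these markers 0 had an unadjusted p under 0.05. Of 9 T, B and NK cell markers 2, Cd3g and Nkg7, were lower at that p, against 2.72% of all features. Of these 9, 3 had positive and 6 negative differences. Cd3e was at 1.01 and Cd79a at 0.56, with patches on transgenic replicates 4 and 3. Of the cholangiocyte markers 4 had positive and 4 negative differences. Krt19 was above background on 1 wild-type array and no transgenic array, while Krt7 was above it on all 6 and read 6.61 to 6.87 in wild-type and 7.09 to 8.57 in transgenic livers, with a patch on replicate 3. Endothelial markers had 1 positive and 6 negative differences, Kupffer cell markers 4 and 1. The highest endothelial sum was on wild-type replicate 2, where Lyve1 read 9.57, in a patch, and Cdh5 8.29. On the other wild-type arrays Lyve1 read 6.30 to 6.89 and Cdh5 4.68 to 4.99. The part of these cells in the transporter values was not tested.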

How the data were processed

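Per the file headers, the authors deposited a linear intensity for each spot with background already subtracted. A second deposited intensity column, also used in the authors' value table, is that signal divided by 1 constant per array. The scanner is not given in the sources used here. Of 35587 spots, 620 bacterial control spots were left out. Low signals were raised to a floor, percentile 1 of the positive values on that array, log2 was taken and arrays were quantile normalized. Accessions without versions were matched to RefSeq (GRCm38.p6), and the brightest probe stood for a gene. The background limit came from 570 control spots (their median and 3 scaled MADs above it) and was 33.0 to 50.6. The test was limma's moderated one (version 3.58.1, R 4.3.3; two-sided, Benjamini-Hochberg over 34175 features), which was tested on simulated data. Levels are means ± SD, differences ± limma's SE. Median probe signals were 53.8 to 93.4 on wild-type and 94.8 to 117 on transgenic arrays, so signal before normalization was higher on every transgenic array. The number of arrays limits precision. Patches were spots whose neighbours within 4 rows and columns deviated by over 0.5 (log2) in the median. Members, lists and the rule for named genes were chosen with earlier results of these data known. Named were detected members with a textbook role, those with an unadjusted p under 0.05 and the 3 nearest to it. Of the 66 members 50 had a promoter entry in RefSeq's table. Alternatives were other scalings, floors, filters, spread models, probe rules, patch correction, the authors' table, a replicate block and each array left out. The promoter stretches were searched for 6 motifs, and figures were drawn with matplotlib 3.10.9. Values of 2 members are not reported here, though the counts over the 66 members include them.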

Additional observations from a re-analysis of the deposited data

How the results depend on the processing

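No member had an adjusted p under 0.05 under any of the 18 alternatives (limma), and Slco1a1 and Abcc5 kept their direction in all of them. The authors' value table gave the same values. Of all features, 0 to 1 were called when single arrays were left out, 1 without wild-type replicate 1 and 1 without transgenic replicate 4. For the values below that turned or moved the cause was not tested. Members and features with an unadjusted p under 0.05 varied. Median scaling gave 943 features higher and a member median of -0.0989. Local correction of patches gave 1236 features higher and 1359 lower. Members lower were 1 with the floor at the 5th percentile, 1 with trended spread and 1 with either background filter. Features lower were 896 with that floor and 889 with trended spread. The filter on all arrays of a group gave 619 of 22173 tested features lower, and the filter on all 6 arrays 535 of 19255. Members higher were 1 with the filter on all 6 arrays, against 1039 of 19255 features. With single arrays left out, members higher ranged from 1 (without transgenic replicate 3) to 3 and features higher from 953 to 1560. Members lower ranged from 0 (without wild-type replicate 1) to 3 (without transgenic replicate 4). Features lower ranged from 641 (without transgenic replicate 3) to 1331 (without wild-type replicate 4).

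Replicate numbers 1 and 4 occur in both groups, with correlations of same-numbered deviations of 0.060 and 0.058. Pairs of a wild-type and a transgenic array with different numbers gave lower values, from -0.066 to 0.018. Whether same-numbered arrays share more than a number was not tested. The fit with the replicate number as a block, which rests on 4 arrays, gave 679 features and 1 member higher, and turned Slco2a1 to 0.018, Abcc10 to -0.045, Abcb6 to -0.24, Abce1 to -0.29 and Abcb8 to 0.14.

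Signs turned for the following members. Median scaling gave -0.22 for Slco1b2, -0.16 for Abcb4, -0.022 for Abcc2 and -0.22 for Slc22a18. Scaling on the 75th percentile gave -0.20, -0.14, -0.0035 and -0.21 for the same genes. Array weights gave 0.052 for Abca5, 0.0023 for Slc22a17, 0.12 for Slc22a6 and 0.092 for Slco1c1. Local correction gave 0.35 for Abcg5, -0.072 for Slco1b2, -0.0088 for Abcc2, 0.035 for Slc22a6, -0.26 for Slc22a18 and -0.063 for Slco4a1. Single arrays moved Slco2a1 (-0.44 to -0.11), Slco3a1 (-0.52 to -0.21) and Abcd4 (-0.59 to -0.25) without turning them. With single arrays left out, the log2 difference ranged from -0.098 to 0.90 for Slco1a4, -0.85 to 0.18 for Abcg2, -0.14 to 0.73 for Slc22a26, -0.26 to 0.63 for Abcb6, -0.21 to 0.59 for Abce1 and -0.31 to 0.057 for Abcf2. It ranged from -0.044 to 0.17 for Abcc2, -0.28 to 0.035 for Abcb8, -0.16 to 0.056 for Abca2, -0.052 to 0.16 for Slc22a5, -0.091 to 0.32 for Abca8b and -0.36 to 0.11 for Abca5. For Slc22a17 it ranged from -0.28 to 0.16, for Abcf1 from -0.27 to 0.16, for Slc22a6 from -0.26 to 0.25, for Slc22a18 from -0.040 to 0.11, for Slco4a1 from -0.11 to 0.13 and for Slco1c1 from -0.21 to 0.32.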

Other observations

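Some members outside the rule for named genes stood alone on 1 array, and they are named here after their values were seen. Slc22a8, which encodes the kidney organic anion carrier OAT3, read 7.38 on wild-type replicate 4, the 1 array where it was above background, and 3.82 to 4.74 on the other 5, with no patch there. Its neighbour Slc22a6 was also highest on that array, at 7.35 against 6.33 to 6.94. Slc22a2, the gene of the organic cation carrier OCT2, was above background on transgenic replicate 4 alone. Abcg4 had 2 probes, of which the brighter differed by 0.22 ± 0.24 (SE) and the other by 0.75 ± 0.59, with 9.24 on transgenic replicate 4 and 6.88 to 7.77 elsewhere.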
